A study of Mus musculus with 4 samples.

Results

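Neutrophils are drawn into the lung by a small family of CXC chemokines that signal through the receptor CXCR2. Around this axis 6 mouse genes were followed, the chemokine genes Cxcl1, Cxcl2, Cxcl3, Cxcl5 and Cxcl15 and the receptor gene Cxcr2. They are not all genes of the axis. The 6 were taken by gene symbol from the 32285 genes of 4 single-cell RNA-seq libraries, and all 6 were found once. The libraries came from lungs of mice carrying a Galt gene edit, called GAL (replicates 1 and 2), and of wild-type mice, called WT (replicates 1 and 2). The Galt enzyme acts in the breakdown of galactose. The kind of edit, the age and sex of the mice, and the number of animals behind each library are not given in the labels. Whole lungs were washed free of blood, cut up and broken into single cells with collagenase IV and DNase I, and single cells were captured in droplets, where each captured transcript is tagged with a unique molecular identifier (UMI) and counted once. Galt itself stood at 13.3 and 10.6 CPM (UMIs scaled to a common total) in the GAL libraries, against 11.5 and 11.3 in the WT libraries, and since the kind of edit is not known these levels do not check the labels.

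CXCL1, CXCL2, CXCL3 and CXCL5 carry a glutamate-leucine-arginine motif ahead of their paired cysteines, bind CXCR2 and guide neutrophils out of blood and through tissue. In inflamed lung, CXCL1 is known from macrophages, stroma and epithelium, CXCL2 from macrophages and neutrophils themselves, and CXCL5 from epithelium. CXCL15, known as lungkine, is a mouse chemokine of airway and alveolar epithelium. CXCR2 couples to inhibitory G proteins and is lost from the neutrophil surface after it meets its ligands. Transcription of Cxcl1, Cxcl2 and Cxcl3 is induced quickly by NF-kB downstream of Toll-like receptors, interleukin 1 and TNF.

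The 5 ligand genes lie on the plus strand of 1 stretch of chromosome 5 in GRCm38 (GENCODE M21 annotation), in the order Cxcl5 (ENSMUSG00000029371, chr5:90759360-90761624), Cxcl3 (ENSMUSG00000029379, chr5:90786103-90789600), Cxcl15 (ENSMUSG00000029375, chr5:90794534-90803067), Cxcl1 (ENSMUSG00000029380, chr5:90891241-90893115) and Cxcl2 (ENSMUSG00000058427, chr5:90903871-90905938). Cxcr2 (ENSMUSG00000026180) lies on chromosome 1, at chr1:74153989-74161246. A promoter window, 250 bases before to 50 bases after the start of transcription, was held by the RefSeq table (GRCm38.p6) for 5 of the 6 genes. The windows of 4 ligands are shown because Cxcl1, Cxcl2 and Cxcl3 share an element that Cxcl15 lacks. Lower case is plain sequence, 5′ to 3′ on the plus strand, and capitals mark the bases that match the NF-kB consensus, read on both strands, whose plus-strand and minus-strand matches overlap.
Cxcl1: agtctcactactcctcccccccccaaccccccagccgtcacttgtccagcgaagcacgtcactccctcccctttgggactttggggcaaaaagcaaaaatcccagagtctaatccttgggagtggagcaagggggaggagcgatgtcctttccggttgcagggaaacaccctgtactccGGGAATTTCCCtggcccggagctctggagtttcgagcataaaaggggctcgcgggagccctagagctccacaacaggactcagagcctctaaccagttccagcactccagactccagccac
Cxcl2: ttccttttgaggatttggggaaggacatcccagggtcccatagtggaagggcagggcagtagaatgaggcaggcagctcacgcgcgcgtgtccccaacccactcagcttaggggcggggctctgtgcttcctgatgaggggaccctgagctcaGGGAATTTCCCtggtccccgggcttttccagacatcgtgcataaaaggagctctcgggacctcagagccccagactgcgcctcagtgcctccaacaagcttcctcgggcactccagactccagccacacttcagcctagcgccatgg
Cxcl3: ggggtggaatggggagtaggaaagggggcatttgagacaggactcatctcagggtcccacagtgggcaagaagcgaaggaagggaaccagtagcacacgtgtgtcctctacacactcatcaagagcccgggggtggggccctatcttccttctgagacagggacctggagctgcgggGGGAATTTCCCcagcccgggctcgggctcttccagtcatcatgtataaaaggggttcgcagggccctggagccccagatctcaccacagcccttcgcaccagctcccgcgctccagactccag
Cxcl15: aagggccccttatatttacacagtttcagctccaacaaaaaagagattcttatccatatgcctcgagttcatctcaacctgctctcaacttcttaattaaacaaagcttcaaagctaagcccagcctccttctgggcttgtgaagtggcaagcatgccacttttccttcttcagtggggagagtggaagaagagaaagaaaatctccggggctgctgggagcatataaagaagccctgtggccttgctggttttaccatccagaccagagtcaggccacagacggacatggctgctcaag
The windows are chr5:90890995-90891294 for Cxcl1, chr5:90903649-90903948 for Cxcl2, chr5:90785851-90786150 for Cxcl3 and chr5:90794284-90794583 for Cxcl15. The same 11-base run stood at positions -71 to -61 of Cxcl1, -97 to -87 of Cxcl2 and -73 to -63 of Cxcl3, counted from the start of transcription. The windows of Cxcl15 and Cxcr2 held no match to these letters. Of 32851 mouse promoter windows of this length, 2779 (8.46%) held at least 1 match. The letters TATAAA, searched on the plus strand, were found in Cxcl3, where they begin at position -30, and in Cxcl15, at position -27, but not in Cxcl1, Cxcl2 or Cxcr2, and 2733 of all windows (8.32%) held them. Annotated transcripts of Cxcl2 and Cxcl3 also share an identical run near their 5′ ends. It is 157 bases long in 1 pair of their transcripts and 92 or 110 bases in the others. Any other pair of the 6 genes shares at most 23 bases. The sources used here do not say how reads that fit both genes were counted. UMIs of Cxcl2 and Cxcl3 are therefore uncertain to the extent that such reads were kept.

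After filtering, 47680 cells remained, with 10967 and 10757 in the GAL libraries, against 12441 and 13515 in the WT libraries. The median depth was 3713 and 2842 UMIs per cell in GAL, against 2361 and 2361 in WT. Cells were placed in 32 lung types by standard marker genes that include none of the 6, and 15.4% of cells stayed without a type. The libraries held 56218178 to 62406681 UMIs each before filtering, and pairs of libraries shared 107 to 149 barcodes. Levels are given in CPM of all UMIs of the same cell type and library, and values in 4 libraries are listed in the order GAL replicates 1 and 2, then WT replicates 1 and 2.

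Cxcl2 transcripts came mainly from phagocytes. Alveolar macrophages, the resident phagocytes of the air space, had 10076 and 13082 CPM in GAL, against 7899 and 10474 CPM in WT. Interstitial macrophages had 11863 and 10218 CPM in GAL, against 6310 and 12789 CPM in WT, and neutrophils had 8938 and 10039 CPM in GAL, against 11267 and 10739 CPM in WT. These 3 types could not be ordered, since their libraries overlapped, and each stood above classical monocytes in every library. Classical monocytes came next with a mean of 2513 ± 1869 CPM (SD, n = 4 libraries), followed within that spread by erythroid cells, nonclassical monocytes and type 2 innate lymphoid cells. Alveolar macrophages held 70.1% of all Cxcl2 UMIs (mean of 4 libraries, range 63.5% to 77.9%), interstitial macrophages 12.0% and neutrophils 6.44%. A Cxcl2 UMI was seen in 93.6% to 99.7% of alveolar macrophages and in 94.6% to 98.4% of neutrophils.

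B cells, which are not known as a source of these chemokines, were taken as the level of free RNA, an assumption that was not tested. They had 91.5 and 154 CPM of Cxcl2 in GAL, against 127 and 103 CPM in WT, and 18.1% and 27.4% of them carried a Cxcl2 UMI in GAL, against 18.9% and 17.7% in WT. Their median depth was 2281 and 2043 UMIs in GAL, against 1423 and 1764.5 UMIs in WT. Shares of Cxcl2-positive cells at or below those of B cells were read as background, although these shares were not brought to a common depth. Erythroid cells had a mean of 1570 ± 877 CPM of Cxcl2 (SD over libraries) and a Cxcl2 UMI in 27.5% to 80% of cells. Near the edge of the erythroid gate lay 36.9% of these cells. Whether their Cxcl2 UMIs were free RNA was not tested. In B cells, the ratio of Cxcl2 to Cxcl1 UMIs was 5.07 and 6.53 in GAL, against 6.68 and 8.28 in WT. In neutrophils the same ratio was 84.1 and 100.3 in GAL, against 117 and 133 in WT, so Cxcl2 and Cxcl1 stood in another ratio there than in B cells.

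**Figure D1:**
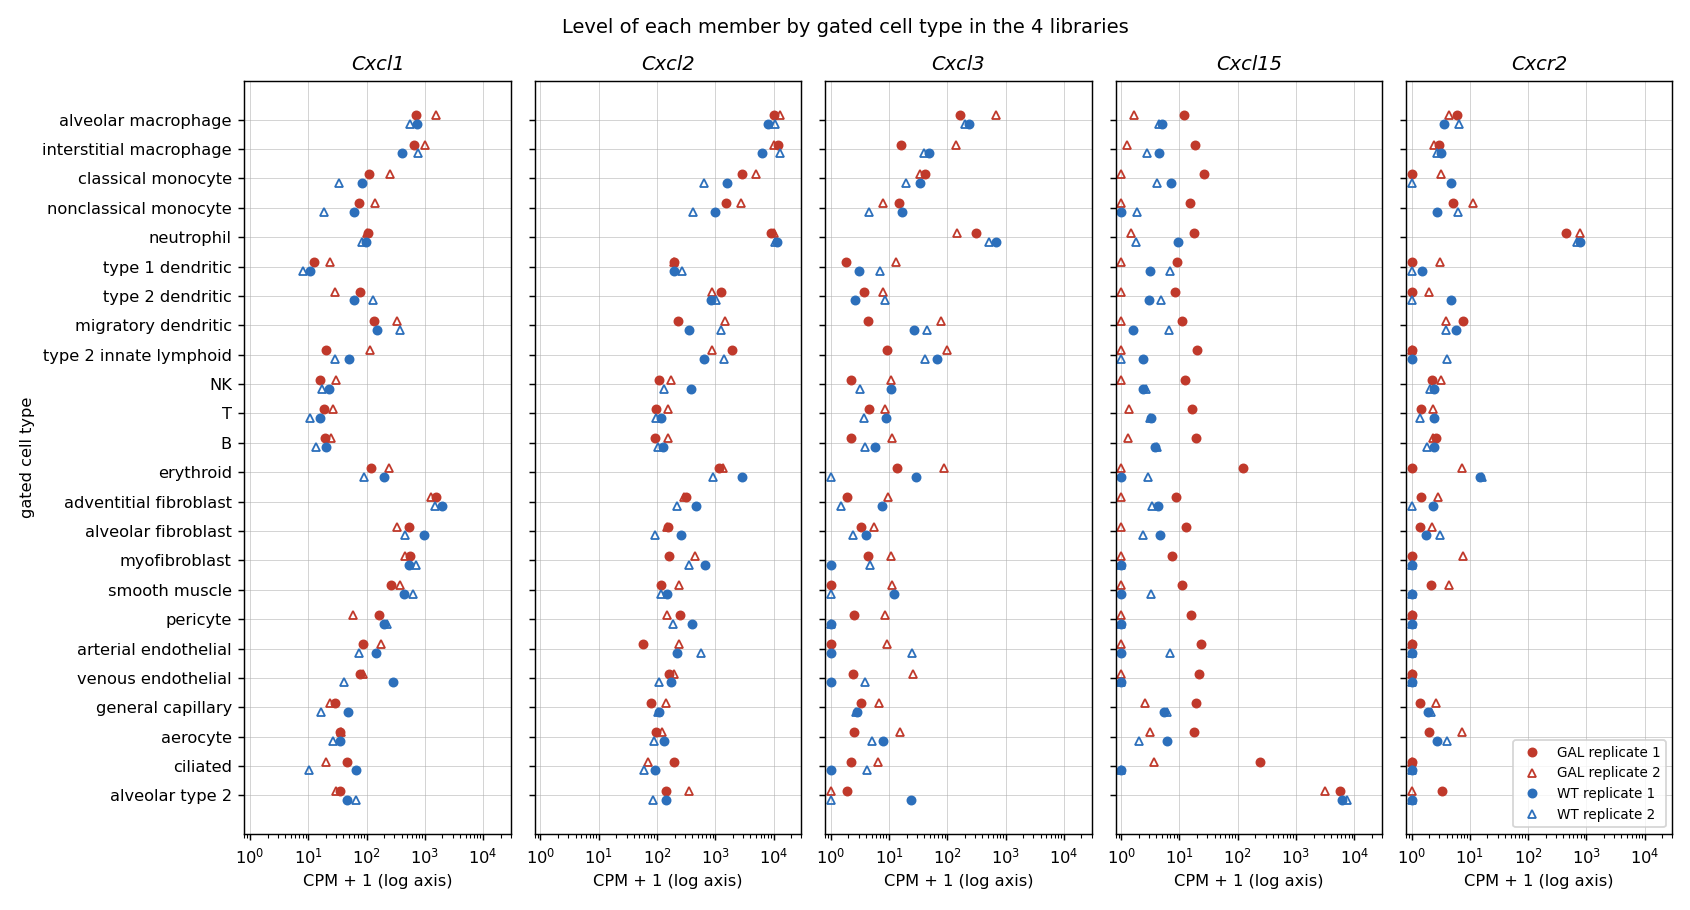
Level of 5 of the genes (CPM + 1 of the cell type's UMIs, log axis) by gated cell type, 1 point per library, GAL in red above WT in blue. Cxcl2 is highest in alveolar macrophages, interstitial macrophages and neutrophils, Cxcl1 in adventitial fibroblasts, Cxcl15 in alveolar type 2 cells and Cxcr2 in neutrophils.

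Cxcl1 had a stromal source as well as a macrophage source. Adventitial fibroblasts, the matrix-producing cells around vessels and airways, had 1535 and 1251 CPM in GAL, against 1930 and 1489 CPM in WT, and 73.6% to 79.3% of them carried a Cxcl1 UMI. Alveolar macrophages had 705 and 1527 CPM in GAL, against 733 and 558 CPM in WT. Only in GAL replicate 2 did the macrophage level exceed that of the adventitial fibroblasts, and the means over 4 libraries were 1552 ± 281 CPM in adventitial fibroblasts and 881 ± 438 CPM in alveolar macrophages (SD). Interstitial macrophages, alveolar fibroblasts and myofibroblasts followed at means of 709, 568 and 562 CPM, inside each other's spread. Smooth muscle cells averaged 425 ± 149 CPM. B cells had between 12.4 and 23.5 CPM in the 4 libraries.

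By number of transcripts, alveolar macrophages held 51.9% of Cxcl1 UMIs (range over libraries 33.4% to 62.6%) and adventitial fibroblasts 18.7% (8.89% to 31.3%). By raw UMIs, which are not adjusted for depth, the macrophage transcripts were concentrated in few cells. The 10% of alveolar macrophages with the most Cxcl1 UMIs held 69.7% and 44.4% of that type's Cxcl1 UMIs in GAL, against 63.8% and 75.5% in WT. For Cxcl3 the top 10%, ranked by its raw UMIs, held 79.4% and 59.7% in GAL, against 79.4% and 85.8% in WT. GAL replicate 2 was the most even library for both genes.

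Cxcl3, a close relative of Cxcl2, was seen in neutrophils and alveolar macrophages. Neutrophils had 311 and 144 CPM in GAL, against 695 and 520 CPM in WT, with a Cxcl3 UMI in 19.05% and 14.1% of GAL neutrophils, against 28.4% and 24.3% of WT neutrophils. Alveolar macrophages had 164 and 679 CPM in GAL, against 235 and 197 CPM in WT. The GAL neutrophil values both lay below the WT values, whereas in alveolar macrophages the GAL libraries fell on either side of WT. Alveolar macrophages held 74.9% of Cxcl3 UMIs and neutrophils 10.5%, while B cells had at most 10.3 CPM in any library. The ratio of Cxcl2 to Cxcl3 UMIs was 61.4 and 19.3 in GAL alveolar macrophages, against 33.5 and 53.1 in WT, and 28.8 and 69.6 in GAL neutrophils, against 16.2 and 20.7 in WT. With cells thinned to 1000 UMIs each, Cxcl3 was seen in 22.6% and 35.0% of Cxcl1-positive GAL alveolar macrophages, against 8.19% and 26.3% of the Cxcl1-negative ones. The same shares in WT were 22.1% and 17.5% among Cxcl1-positive cells, against 7.92% and 7.46% among Cxcl1-negative cells. In every library, Cxcl3 was seen in a larger share of Cxcl1-positive macrophages than of Cxcl1-negative ones.

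**Figure D2:**
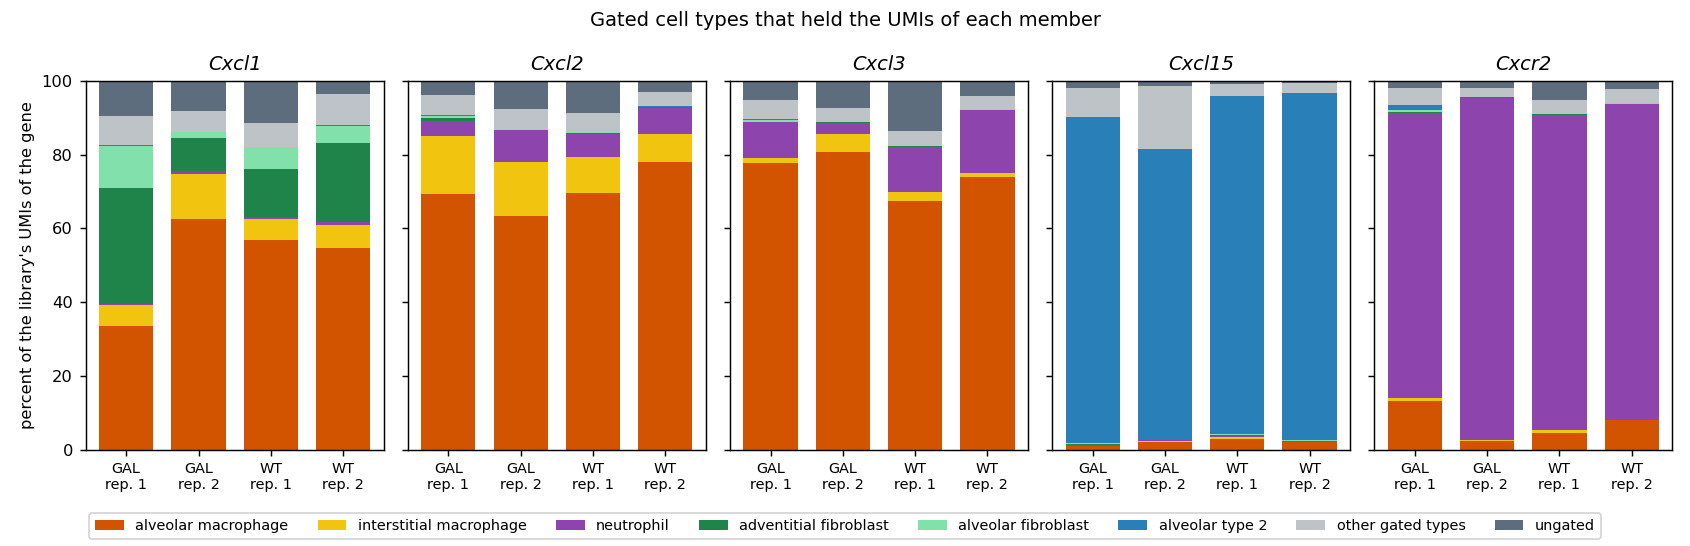
Share of each gene's UMIs (percent of all its UMIs in a library) that came from each cell type, 1 stacked bar per library, GAL left of WT. Alveolar macrophages hold most UMIs of Cxcl2 and Cxcl3, alveolar type 2 cells most of Cxcl15 and neutrophils most of Cxcr2.

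Cxcl15 stood highest in the alveolar type 2 cells of the epithelium. Ciliated cells had a median over the libraries of 1.34 CPM and at most 236 CPM. Alveolar type 2 cells, which make surfactant, had 5733 and 3114 CPM in GAL, against 6184 and 7554 CPM in WT, and held 88.4% of Cxcl15 UMIs (range 79.1% to 94.3%). The 7 alveolar type 2 markers made up 178587 and 149964 CPM of these cells in GAL, against 166432 and 210262 CPM in WT. They also set the gate, so their levels do not check the label. The values rest on 396 and 16 cells in GAL, against 72 and 48 cells in WT. A Cxcl15 UMI was seen in 76.0% of them in GAL replicate 1 (95% Clopper-Pearson interval 71.5% to 80.1%) and 81.3% in GAL replicate 2 (54.4% to 96.0%), against 84.7% in WT replicate 1 (74.3% to 92.1%) and 93.8% in WT replicate 2 (82.8% to 98.7%). The GAL levels both lay below the WT levels, and the type had too few cells in GAL replicate 2 to enter the tests. The share of all its genes whose groups did not overlap was not counted, so no difference is read from this order. Over the 23 types that were tested, groups did not overlap in 31.5% of gene tests. B cells had 18.1 and 0.32 CPM of Cxcl15 in GAL, against 2.85 and 3.05 CPM in WT, with the highest and the lowest value in the libraries that had the highest and the lowest share of alveolar type 2 cells. That share was 3.61% and 0.149% of kept cells in GAL, against 0.579% and 0.355% in WT.

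Cxcl5, the ligand known from inflamed epithelium, was nearly undetected. It had 13 and 16 UMIs in 11 and 10 cells of the GAL libraries, against 119 and 2 UMIs in 28 and 2 cells of the WT libraries. In WT replicate 1, 33 of the UMIs lay in 1 alveolar type 2 cell and 26 in 6 club cells, which line the airways. Adventitial fibroblasts gave 7 and 11 UMIs in GAL, against 11 and 1 in WT. No level by type could be set from so few cells.

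Cxcr2, the receptor, was found in neutrophils at 444 and 776 CPM in GAL, against 789 and 683 CPM in WT. The groups overlapped, and the lowest library was GAL replicate 1. A Cxcr2 UMI was seen in 58.5% and 73.2% of neutrophils in GAL, against 55.6% and 58.2% in WT. At 1000 UMIs per cell the shares were 41.2% and 52.0% in GAL, against 50.2% and 46.4% in WT, after leaving out 15 and 62 shallower neutrophils in GAL, against 183 and 83 in WT. Thinning thus put the WT libraries between the GAL libraries. The neutrophil mean was 673 ± 160 CPM (SD, n = 4 libraries), and the next type, erythroid cells, averaged 8.91 CPM. In B cells Cxcr2 stood at 1.61 and 1.29 CPM in GAL, against 1.43 and 0.81 CPM in WT. Neutrophils held 85.2% of all Cxcr2 UMIs (range 77.1% to 92.8%), and were 2.68% and 9.84% of kept cells in GAL, against 6.50% and 5.87% in WT.

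The receiving cells also carried ligand transcripts. At 1000 UMIs per cell, 39.4% and 51.1% of GAL neutrophils had UMIs of both Cxcr2 and Cxcl2, against 49.2% and 43.9% of WT neutrophils. Cxcl2 was seen in 95.7% and 98.3% of Cxcr2-positive GAL neutrophils, against 90.2% and 96.0% of Cxcr2-negative ones. In WT, it was seen in 98.1% and 94.5% of Cxcr2-positive neutrophils, against 96.2% and 95.8% of Cxcr2-negative ones. Detection of the ligand was nearly complete with or without the receptor. The 11 neutrophil marker genes made up 173972 and 155806 CPM in GAL neutrophils, against 120725 and 117948 CPM in WT neutrophils. These genes also set the gate, so their levels do not check the label. Near the edge of the gate lay 38 of 2955 neutrophils (1.29%).

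Genes whose level across the 23 types with at least 30 cells in every library was most like each member were picked by Pearson's r of log2(CPM + 1) among 11114 genes. For Cxcl1 these were Cd63 (r = 0.87), the complement gene C3 (r = 0.87) and the cytokine gene Il6 (r = 0.86). For Cxcl2 they were Il1rn, the interleukin 1 receptor antagonist (r = 0.94), the chemokine gene Ccl6 (r = 0.94) and Clec4a2 (r = 0.93). For Cxcl3 they were Cxcl2 itself (r = 0.88), the purine receptor gene P2ry13 (r = 0.88) and Il23a (r = 0.86). For Cxcl15 the surfactant genes Sftpa1, Sftpc and Sftpb came first (r = 0.91, 0.89 and 0.88), although alveolar type 2 cells were not among the 23 types, so these values describe low levels in other types. For Cxcr2 the genes were Stfa2l1 (r = 0.94), Gm1604a (r = 0.94) and the calprotectin subunit S100a8 (r = 0.93), which is itself a neutrophil marker. The points share libraries and depth, and no test was made.

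The first comparison asked whether the axis differed between GAL and WT lungs as a whole. No member was called in the sums over all kept cells by edgeR's quasi-likelihood test with Benjamini-Hochberg adjustment, and neither was any of the 16831 genes tested (0.0% called). At an unadjusted p under 0.05 there were 1045 genes, and DESeq2 called 37. A group difference in such sums cannot tell fewer cells of a type from less RNA per cell. With 2 libraries a group, an exact permutation test of a single value cannot go below 0.333, and the p-values measure only the spread between these libraries.

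Cxcr2 stood at 7.61 and 36.5 CPM in the GAL lungs, against 19.3 and 20.8 CPM in the WT lungs. The GAL libraries held both the lowest and the highest value, as they did for the share of neutrophils. Its log2 difference (GAL over WT) was 0.16 ± 0.74 (SE, edgeR's quasi-likelihood test, Benjamini-Hochberg adjusted p = 0.956). Without GAL replicate 2 it was -1.51 with an edgeR adjusted p of 0.0403. Outside gated neutrophils, Cxcr2 was 1.76 and 2.75 CPM in GAL, against 2.87 and 3.08 CPM in WT.

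Cxcl15 stood at 265 and 8.23 CPM in the GAL lungs, against 47.0 and 50.8 CPM in the WT lungs, so the GAL libraries again lay on both sides of WT, as did their alveolar type 2 shares. Its log2 difference was 1.40 ± 1.34 (edgeR's quasi-likelihood test, Benjamini-Hochberg adjusted p = 0.786). Without GAL replicate 1 it was -2.53, and without GAL replicate 2 it was 2.33 with an adjusted p of 0.0251, so the call and the sign rested on single libraries. Cxcl1 stood at 420 and 606 CPM in GAL, against 440 and 301 CPM in WT, and differed by 0.45 ± 0.34. Cxcl2 stood at 2892 and 5119 CPM in GAL, against 3880 and 3972 CPM in WT, and differed by 0.03 ± 0.35, which was -0.55 without GAL replicate 2. Cxcl3 stood at 42.0 and 209 CPM in GAL, against 119 and 78.9 CPM in WT, and differed by 0.35 ± 0.79; without GAL replicate 2 the last value was -1.36. The groups overlapped for all 3, with edgeR adjusted p-values of 0.735, 0.986 and 0.909. Cxcl5 differed by -2.15 ± 1.52, which rested on WT replicate 1: without it the value was 2.72. Over all genes, 39.1% had both GAL libraries on 1 side of both WT libraries, while the groups overlapped for all 6 members.

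**Figure D3:**
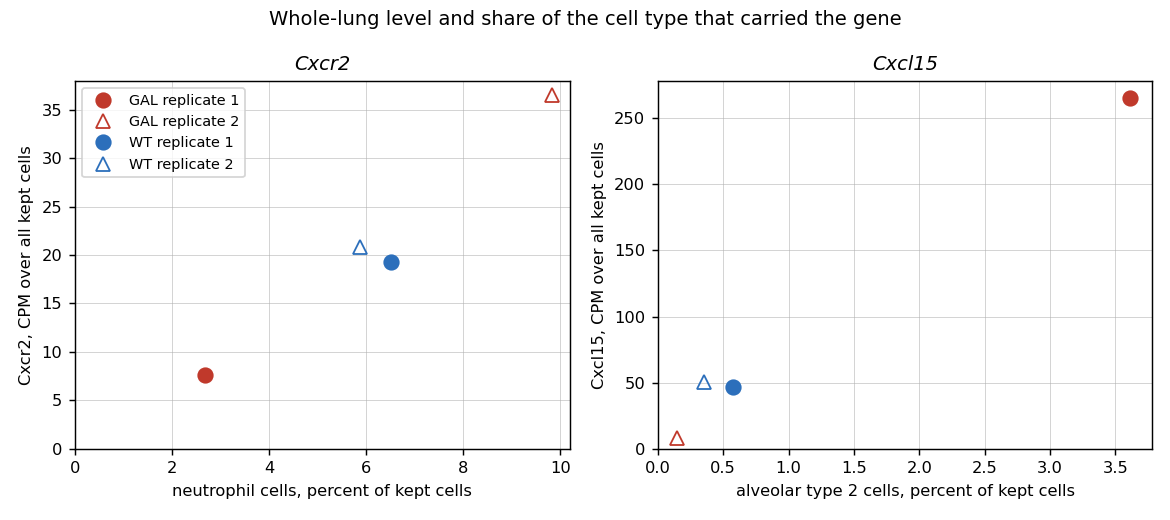
Whole-lung CPM of Cxcr2 and Cxcl15 against the percent of kept cells that were neutrophils or alveolar type 2 cells, 1 point per library, GAL and WT. GAL replicate 2 has the most neutrophils (9.84%) and the most Cxcr2 (36.5 CPM), and GAL replicate 1 the most alveolar type 2 cells (3.61%) and the most Cxcl15 (265 CPM).

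The second comparison was made within cell types. The members gave 138 pairs of gene and type over the 23 types, of which 61 had enough counts to be tested: Cxcl1 and Cxcl2 in 23 types each, Cxcl3 in 10, Cxcl15 and Cxcr2 in 2 each and Cxcl5 in 1. No member was called in any of them, while 11 of the 61 had an unadjusted p under 0.05, beside 4.19% of all gene tests in these types. Over all genes and types, edgeR called 61 of 164167 gene tests (0.0372%), in 6 types, and 31.5% of the gene tests had groups that did not overlap.

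The nearest to a call were Cxcl2 and Cxcl1 in monocytes. Classical monocytes, the inflammatory blood-derived cells marked by Ly6c2 and Ccr2, had 2896 and 4946 CPM of Cxcl2 in GAL, against 1581 and 630 CPM in WT. Nonclassical monocytes, which patrol vessel walls, had 1543 and 2754 CPM of Cxcl2 in GAL, against 981 and 408 CPM in WT. Both GAL libraries lay above both WT libraries in either type. The log2 difference was 1.89 ± 0.38 in classical monocytes (edgeR's quasi-likelihood test, unadjusted p = 0.000295, Benjamini-Hochberg adjusted p = 0.0695, place 30 of 7090 genes) and 1.74 ± 0.38 in nonclassical monocytes (unadjusted p = 0.000619, adjusted p = 0.0897, place 40 of 5797). Cxcl1 had 1.77 ± 0.45 in classical monocytes (edgeR adjusted p = 0.130) and 1.70 ± 0.49 in nonclassical monocytes (adjusted p = 0.197). None passed the threshold of 0.05, so neither gene is counted as changed in monocytes. The call turned on single libraries: in classical monocytes Cxcl2 was called at 2.27 without GAL replicate 1 (edgeR adjusted p = 0.0163), 2.73 without WT replicate 1 (1.31e-21) and 1.36 without WT replicate 2 (0.00114). In nonclassical monocytes it was called at 2.16, 2.53 and 1.23 without the same libraries, and Cxcl1 was called in both types without GAL replicate 1 or without WT replicate 1. Such fits leave 1 library in an arm, which is assumed to vary like the other arm. Of all genes, 38.4% in classical and 38.8% in nonclassical monocytes had groups that did not overlap, and 18.6% and 18.9% had both GAL libraries above both WT libraries.

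The median cell rests on the same Cxcl2 counts, so it is no separate support, and its values were not brought to a common depth. The median classical monocyte had 6.20 and 23.6 Cxcl2 UMIs per 10000 UMIs in GAL, against 3.42 and 1.64 in WT. The median nonclassical monocyte had 2.32 and 10.2 in GAL, against 0 and 0 in WT. The ratio of Cxcl2 to Cxcl1 UMIs in classical monocytes was 27.1 and 19.5 in GAL, against 19.5 and 19.4 in WT. It lay above that of B cells in all 4 libraries. It also lay above that of alveolar macrophages, 14.3 and 8.57 in GAL, against 10.8 and 18.8 in WT. In WT replicate 2 this margin was small, and the monocyte ratio rested on 51 Cxcl1 UMIs. Interstitial macrophages had 18.5 and 10.02 in GAL, against 15.6 and 16.5 in WT, again below classical monocytes. Neutrophils stood far above, at 84.1 and 100.3 in GAL, against 117 and 133 in WT. Whether RNA from a mix of these types gave the monocyte ratio was not tested.

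The gates and depths behind these values differed as well. Classical monocytes numbered 90 and 156 in GAL, against 351 and 348 in WT, with median depths of 5714 and 5743.5 UMIs in GAL, against 3682 and 4816 UMIs in WT. Nonclassical monocytes had median depths of 3292 and 3215 UMIs in GAL, against 2155 and 2668.5 UMIs in WT. Near the edge of the gate lay 19.7% of classical and 15.4% of nonclassical monocytes. In classical monocytes, the summed alveolar macrophage markers were 962 and 2504 CPM in GAL, against 1253 and 1150 CPM in WT. The interstitial macrophage markers were 651 and 775 CPM in GAL, against 1108 and 1494 CPM in WT, and the 11 neutrophil markers 684 and 1264 CPM in GAL, against 901 and 919 CPM in WT. The interstitial macrophage markers were lower in both GAL libraries, while the alveolar macrophage and neutrophil lists overlapped. The classical monocytes' own markers, which set the gate, summed to 2953 and 2924 CPM in GAL, against 3865 and 3391 CPM in WT. Those of nonclassical monocytes summed to 2745 and 2688 CPM in GAL, against 2983 and 3001 CPM in WT. Both types' own markers were thus lower in both GAL libraries, and their part in the values was not tested. Of the neutrophil markers 10 had UMIs in every library and 1, Ly6g, was at 0 in every library, in both monocyte types, and 85.8% to 94.9% of classical monocytes carried at least 1 neutrophil marker. In nonclassical monocytes the alveolar macrophage markers were 422 and 622 CPM in GAL, against 1046 and 282 CPM in WT, and the interstitial macrophage markers 407 and 493 CPM in GAL, against 337 and 449 CPM in WT. Their neutrophil markers summed to 1395 and 2006 CPM in GAL, against 849 and 1219 CPM in WT, with at least 1 in 85.8% and 92.9% of cells in GAL, against 71.3% and 76.3% in WT. The neutrophil list was thus higher in both GAL libraries, as Cxcl2 was, while the macrophage lists overlapped; its part in the Cxcl2 value was not tested. Without cells that carried an interstitial macrophage marker, a setting chosen after seeing the data, Cxcl2 was called in classical monocytes at 2.14 (edgeR adjusted p = 0.0190) and Cxcl1 at 2.88 (adjusted p = 0.0190). That fit held 18 and 25 cells in GAL, against 57 and 37 in WT, and tested 1665 genes. Without cells that carried an alveolar macrophage marker, Cxcl1 was called at 3.71 in classical monocytes (edgeR adjusted p = 0.0256) and Cxcl2 was not, at 2.43 (adjusted p = 0.0565). Here 26 and 14 cells were left in GAL, against 44 and 90 in WT, and 2001 genes were tested. Both GAL libraries thus fell under the 30 cells required in the main tests, and the adjustment ran over fewer genes than the 7090 of the main fit. With DESeq2, Cxcl2 in classical monocytes had 1.90 and an adjusted p of 0.615. In nonclassical monocytes neither gene was called under these settings. With the stricter gate, Cxcl2 was called in nonclassical monocytes at 1.88 (edgeR adjusted p = 0.0445) and Cxcl1 in classical monocytes at 2.78 (adjusted p = 0.0238). The part of depth in the differences was not tested.

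**Figure D4:**
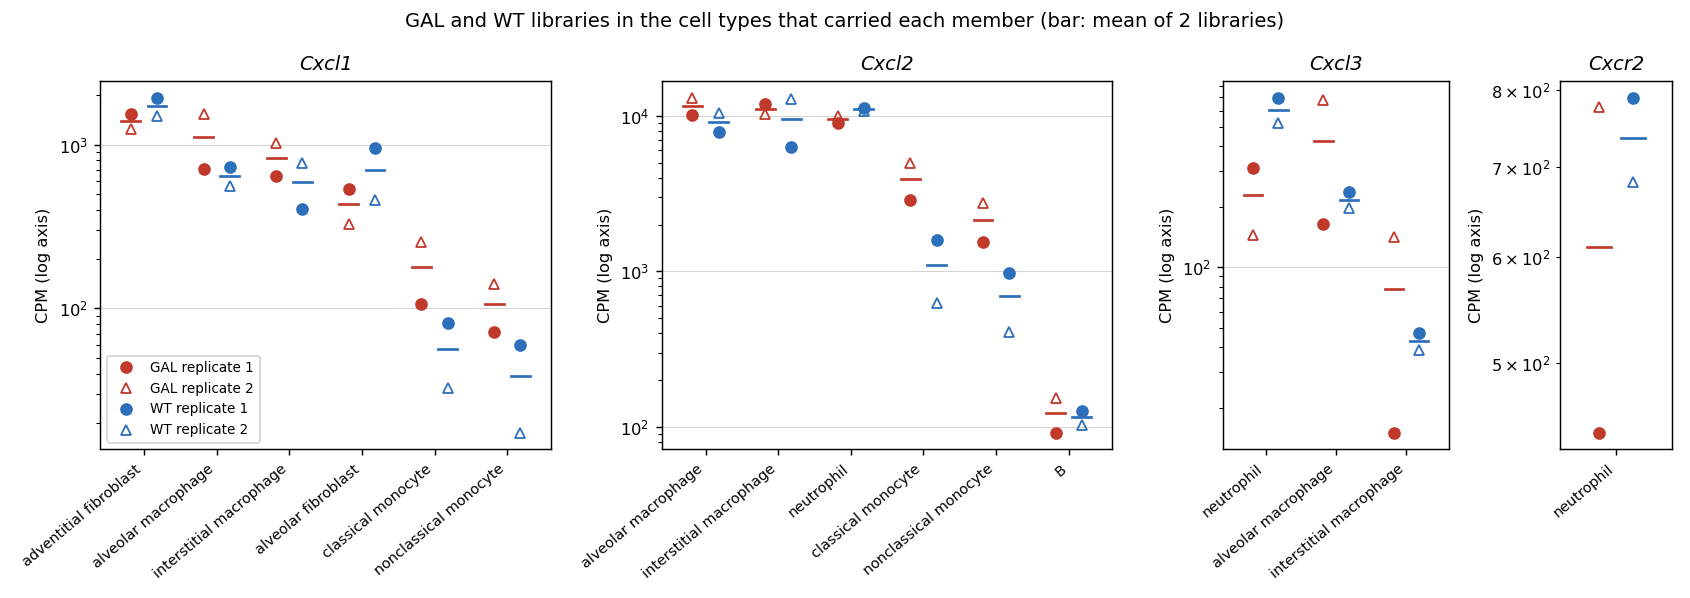
Level (CPM, log axis) of Cxcl1, Cxcl2, Cxcl3 and Cxcr2 in the cell types that carried them, 1 point per library with a bar at the mean of 2 libraries, GAL left of WT. Both GAL points lie above both WT points for Cxcl1 and Cxcl2 in the monocyte types and below them for Cxcl3 in neutrophils; none of these had an adjusted p under 0.05.

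Other genes were called in monocytes. In classical monocytes 16 of 7090 genes were called (0.226%), 14 higher and 2 lower in GAL, and in nonclassical monocytes 17 of 5797 (0.293%), all higher. In all, 5 genes were called in both: Acp5, Arl5c, Gadd45b, Maff and Tnfsf9, named here after their values were seen. In classical monocytes the smallest p was that of Il10, at 3.68 ± 0.38 (edgeR adjusted p = 0.00365). The 2 lower genes there were Mindy1, at -1.68, and Rrp1b, at -1.99. Il10, Mindy1 and Rrp1b are outside the lists and were named after their values were seen. Icam1, the adhesion molecule that neutrophils bind, was higher in GAL classical monocytes by 2.34 ± 0.29 (edgeR adjusted p = 0.00818). Nfkbia, the NF-kB inhibitor that NF-kB itself induces, was higher there by 1.57 ± 0.27 (edgeR adjusted p = 0.0459). In nonclassical monocytes Tnf was higher in GAL by 2.47 ± 0.44 (edgeR adjusted p = 0.0379). The itaconate enzyme gene Acod1 was higher there by 2.29 ± 0.39 (edgeR adjusted p = 0.0334). The mitochondrial superoxide dismutase gene Sod2 was higher there by 1.53 ± 0.25 (edgeR adjusted p = 0.0334). Spic and Fabp4, genes known from macrophages and also named after their values were seen, were among the 17, with an edgeR adjusted p of 0.0334 each and a log2 difference of 3.55 ± 0.48 for Spic. In classical monocytes the count was 64 without GAL replicate 1, 20 without GAL replicate 2, 243 without WT replicate 1 and 43 without WT replicate 2. In nonclassical monocytes it was 89, 0, 70 and 28 in the same order, and 0 without doublet removal.

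In the macrophages, the main sources, no member was called, nor any gene of the 11984 tested in alveolar macrophages (0.0%) or of the 9651 tested in interstitial macrophages (0.0%); at an unadjusted p under 0.05 there were 436 and 164 genes, and DESeq2 called 5 and 1. In alveolar macrophages the log2 difference was 0.89 ± 0.45 for Cxcl1 (edgeR adjusted p = 0.987), 0.42 ± 0.29 for Cxcl2 and 1.09 ± 0.68 for Cxcl3. Without GAL replicate 2 the values were 0.065, 0.083 and -0.46; that was the library with the highest alveolar macrophage level of all 3 genes. Groups overlapped for all 3 genes, while 32.5% of all genes in this type had groups that did not. In interstitial macrophages the difference was 0.54 ± 0.38 for Cxcl1 and 0.24 ± 0.32 for Cxcl2. The median alveolar macrophage held 61.2 and 121 Cxcl2 UMIs per 10000 in GAL, against 44.6 and 60.2 in WT.

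The stromal sources of Cxcl1 had values below 0, and none was called. Adventitial fibroblasts differed by -0.31 ± 0.23, and alveolar fibroblasts by -0.71 ± 0.33 (edgeR adjusted p = 0.854), where Cxcl1 was 538 and 328 CPM in GAL, against 951 and 457 CPM in WT, with overlapping groups. Smooth muscle cells had 266 and 373 CPM in GAL, against 441 and 621 CPM in WT, and pericytes, which wrap capillaries, 160 and 57.3 CPM in GAL, against 201 and 222 CPM in WT. Both GAL libraries lay below both WT libraries, and groups did not overlap for 32.4% of all genes in smooth muscle cells and 37.0% in pericytes. Smooth muscle cells differed by -0.73 ± 0.24 (unadjusted p = 0.00686, edgeR adjusted p = 0.946) and pericytes by -0.94 ± 0.42. The alveolar fibroblast value rested on single libraries: it was -1.16 without GAL replicate 1 (edgeR adjusted p = 0.000515), -0.38 without GAL replicate 2, -0.048 without WT replicate 1 and -1.17 without WT replicate 2. The adventitial fibroblast value ran from -0.52 to -0.088 in the same way. In arterial endothelium, Cxcl2 differed by -1.68 ± 0.48 (unadjusted p = 0.00242, edgeR adjusted p = 0.493), with groups that overlapped.

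In neutrophils no member and none of 5739 genes was called (0.0%), with 166 genes at an unadjusted p under 0.05 and 6 called by DESeq2. Cxcl3 had the smallest p of the members, with a log2 difference of -1.31 ± 0.36 (unadjusted p = 0.00495, edgeR adjusted p = 1.00, place 23 of 5739). Both GAL libraries lay below both WT libraries, and groups did not overlap for 27.8% of all genes. The value ran from -1.92 to -0.87 over the alternatives and was called in 2 of them, at -1.92 without GAL replicate 1 (edgeR adjusted p = 2.62e-05) and at -1.37 with no filter on low counts (adjusted p = 0.0104). Cxcr2 differed by -0.13 ± 0.31, Cxcl2 by -0.08 ± 0.22 and Cxcl1 by 0.35 ± 0.27. In these neutrophils the summed alveolar type 2 markers were 602 and 22.3 CPM in GAL, against 179 and 123 CPM in WT, and the alveolar macrophage markers 1771 and 456 CPM in GAL, against 1614 and 226 CPM in WT, with overlapping groups. The classical monocyte markers in these neutrophils, 378 and 117 CPM in GAL, against 81.5 and 71.2 CPM in WT, and the neutrophils' own markers given above were higher in both GAL libraries. Their part in the values was not tested.

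Genes around the axis were followed in 5 lists that hold 70 genes. In the whole lung no list gene was called. Among the upstream cytokines and their receptors 18 were tested, with a median log2 difference of -0.03, and 15 NF-kB and mRNA decay regulators had a median near 0, beside 0.01 over all genes. The 10 other genes of the CXCR2 and decoy receptor axis had a median of 0.12, the 16 neutrophil receptor and motility genes -0.20 and the 11 other neutrophil activation genes 0.18. Osm, encoding the cytokine oncostatin M, at -0.68, and Nfkbiz, an inducible NF-kB cofactor, at 0.62, had the smallest p, with an edgeR adjusted p of 0.716 each. Among the other genes with the smallest p in each list, Cxcl12 was at 0.52, its receptor gene Cxcr4 at -0.61, Mif at -0.27 and Cxcr1, the sister receptor gene, at -0.90. Il6 was at 0.62, Tlr4 at -0.48, Csf3, the gene of the neutrophil growth factor G-CSF, at 1.09 and Tlr2 at -0.30. Nfkbia was at 0.33, Ikbkb at -0.36 and Elavl1 at -0.16, and the adhesion and motility genes Itgb2, Itgal, Rac2 and Grk6 were at -0.43, -0.41, -0.26 and -0.21. Ptgs2 was at 0.67, Icam1 at 0.57 and Ccl6 at -0.61. None of these was called.

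The lists, which were chosen with earlier results of these data known, were also read within monocytes. Their genes come from the same libraries and were not tested as sets, so the counts below are a description only. In classical monocytes 10 of 15 NF-kB and mRNA decay regulators had both GAL libraries above both WT libraries and none had both below, with a median of 0.92 beside -0.01 over all genes, and 1 was called (Nfkbia). The activation genes had 6 of 11 above and 2 below, a median of 1.14 and 1 call (Icam1), and the upstream genes 6 of 14 above and 2 below, a median of 0.79 and no call. In nonclassical monocytes the NF-kB list had 9 of 15 above and 2 below with a median of 0.77 and no call, the activation list 8 of 11 above, a median of 1.57 and 2 calls (Sod2, Acod1), and the upstream list 7 of 10 above, a median of 0.96 and 1 call (Tnf). The neutrophil receptor and motility genes had medians of 0.23 in classical and 0.01 in nonclassical monocytes, and the 3 tested genes of the decoy list -0.07 and -0.05, with no call. Over all genes, 18.6% in classical and 18.9% in nonclassical monocytes had both GAL libraries above both WT libraries.

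In alveolar macrophages the same lists had medians of 0.16 for the 16 upstream genes, 0.10 for the 15 NF-kB regulators, 0.35 for the 11 activation genes, 0.13 for the 16 receptor and motility genes and -0.15 for 7 decoy axis genes, with no call. In neutrophils the medians were 0.07 for 13 upstream genes, 0.08 for 15 NF-kB regulators, 0.16 for 16 receptor and motility genes, 0.14 for 11 activation genes and 0.30 for 5 decoy axis genes, with no call. Among neutrophil genes, the leukotriene B4 receptor gene Ltb4r1 was at 0.74, the formyl peptide receptor gene Fpr1 at 0.73, the arrestin gene Arrb2 at 0.47 and Pik3cg at 0.40. Ccl3, a chemokine that neutrophils secrete, was at 0.94 (unadjusted p = 0.0316), Hcar2 at 0.77, Sod2 at 0.57 and Ccl6 at -0.42, all with an edgeR adjusted p of 1.00. No difference between cell types in these values was tested.

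**Figure D5:**
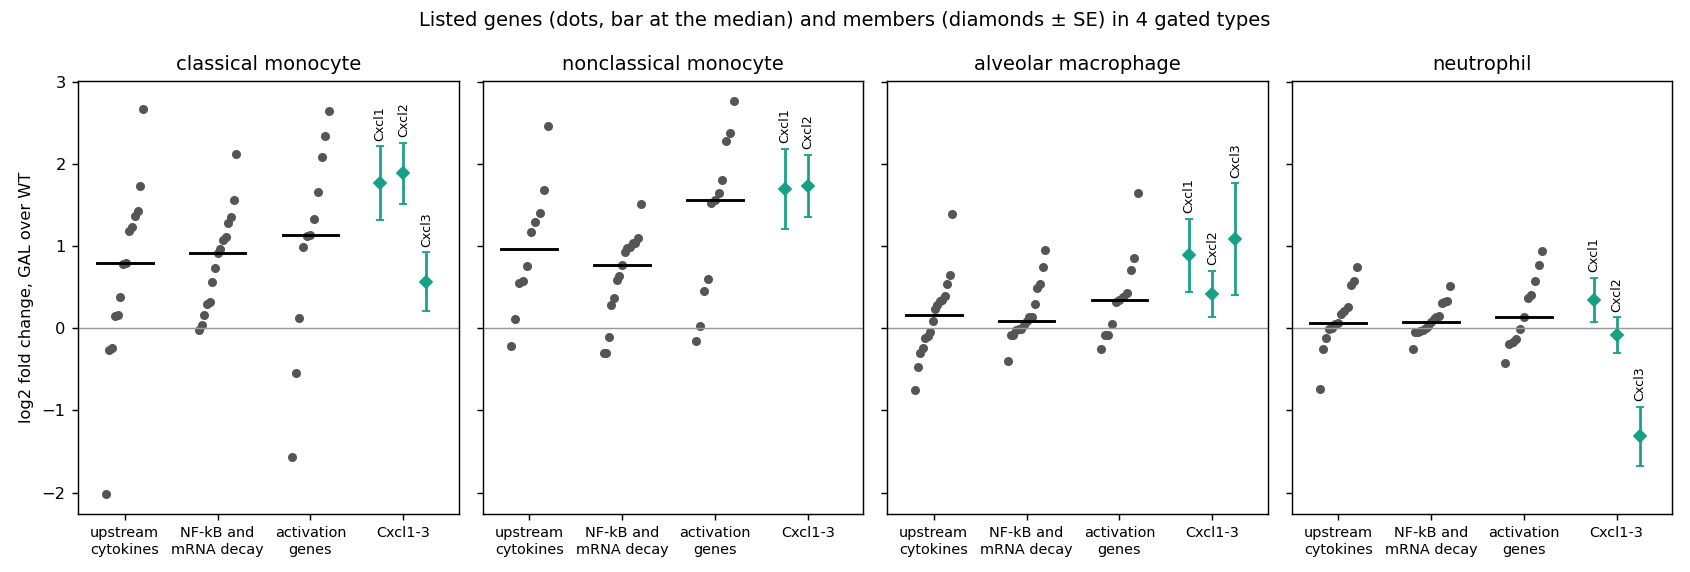
Log2 difference (GAL over WT, edgeR) of the genes of 3 lists (dots, bar at the median) and of the members tested among Cxcl1, Cxcl2 and Cxcl3 (diamonds, error bar 1 SE) in 4 cell types. Medians of the NF-kB list are 0.92 and 0.77 in the monocyte types, and 0.10 and 0.08 in alveolar macrophages and neutrophils.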

How the data were processed

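Droplet single-cell RNA-seq was measured in 4 mouse lung libraries, 2 GAL and 2 WT. The authors deposited UMI counts per gene and cell barcode, unnormalised, with barcode and gene name files that hold names (other) only. Per the submitters' processing notes, fastp, STAR and Seurat were used with GRCm38 (mm10); the sources used here give neither the gene annotation nor how reads that fit several genes were treated.

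Barcodes passed with a minimum of 500 UMIs and 300 genes and a maximum of 20% mitochondrial UMIs. Doublets were removed by taking the highest Scrublet-type scores at 0.8% per 1000 cells, which removed 9.72% and 9.51% of barcodes in GAL, against 11.2% and 12.3% in WT. A cell was given a type where at least 2 of its markers had a UMI and its marker score led the next type by at least 0.25; a cell with 2 markers or a lead under 0.5 was counted as near the edge. The types rest on 216 marker genes, and none is a member. Shares given at 1000 UMIs per cell or after thinning used cells thinned to 1000 UMIs. All other shares of positive cells were not brought to a common depth. Intervals (95%, Clopper-Pearson) cover counting error only.

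For each library, counts were added up over the whole set of kept cells and within each type with at least 30 cells in every library, and tested with edgeR 4.0.16 (filterByExpr, TMM, quasi-likelihood, Benjamini-Hochberg over all genes tested; called at an adjusted p under 0.05) in R 4.3.3 with limma 3.58.1. Levels in the text are plain CPM of a type's own total, and the log2 differences are scaled by TMM. The tests were tried on simulated data. Alternatives were DESeq2 1.42.0, RLE scaling, no filter, each library left out, no doublet removal, a 10% mitochondrial limit, a stricter gate (3 markers, lead 0.5) and leaving out neutrophils. Other steps used Python 3.11.15, numpy 2.4.6, scipy 1.17.1 and pandas 2.3.3.

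The members and the gene lists were chosen with earlier results of these data known. Named genes are all members, up to 4 genes of each list with the smallest p in the whole lung and, for the neutrophil lists, in neutrophils, and the 3 genes most like each member among genes with at least 20 CPM in some type; Cxcl5 did not reach 20 CPM in those types. The list genes named in monocytes were chosen after their values were seen.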

Additional observations from a re-analysis of the deposited data

Results flagged for a closer look

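Cxcl1 was picked out because both GAL libraries lay above both WT libraries in 6 of 23 cell types and below them in 2, on the TMM scale of the test. These 8 types are 34.8% of those tested, near the 31.5% of all gene tests in the 23 types whose groups did not overlap. The log2 difference (GAL over WT) was 1.77 in classical monocytes, 1.70 in nonclassical monocytes, 1.01 in type 1 dendritic cells, 0.81 in T cells, 0.35 in neutrophils and 0.27 in aerocytes, the large capillary cells of gas exchange. It was -0.73 in smooth muscle cells and -0.94 in pericytes. Cxcl3 stood in the same way at 0.57 in classical monocytes and -1.31 in neutrophils. In T cells and type 1 dendritic cells Cxcl1 averaged 16.9 and 12.7 CPM over the 4 libraries. Both lay below the 18.3 CPM of B cells, the level taken as background. None of these values was called in its own type, and the difference between types was not tested.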

How the results depend on the processing

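No paired analysis was possible because the labels carry no replicate numbers: those used here only name the libraries of a group. The whole-lung count of 0 called genes was 37 with DESeq2, and 0 to 389 with 1 library left out (389 without GAL replicate 2, 0 without each of the others). The count of 61 calls over 23 types was 1173 with no filter on low counts, 105 with DESeq2, 14 without doublet removal and 471 to 968 with 1 library left out; the cause was not tested. After thinning, the type with the largest share of positive cells was the type with the highest level for 5 of 6 members, Cxcl5 with its few UMIs among them; for Cxcl2 it was the neutrophil.

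Of 198 alternative values of 19 member differences, 163 kept their direction and side of the threshold, 23 kept the direction and were called, and 12 changed sign. Without neutrophils, whole-lung Cxcr2 was at -0.41, and without doublet removal Cxcl2 was at 0.063 and Cxcr2 at 0.0030 in neutrophils. With 1 library left out, which leaves 1 library in an arm that is assumed to vary like the other, whole-lung values ran from -0.55 to 0.42 for Cxcl2, -1.36 to 1.11 for Cxcl3, -3.14 to 2.72 for Cxcl5, -2.53 to 2.33 for Cxcl15 and -1.51 to 0.91 for Cxcr2. The lowest values of Cxcl2, Cxcl3 and Cxcr2 came without GAL replicate 2. In neutrophils they ran from -0.20 to 0.025 for Cxcl2 and -0.63 to 0.24 for Cxcr2, and in alveolar macrophages from -0.46 to 1.82 for Cxcl3. Cxcl2 also turned, to -0.03, in the whole lung without WT replicate 2.

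Cxcl2 in monocytes kept its sign under every alternative, from 1.36 to 2.73 in classical and 1.19 to 2.53 in nonclassical monocytes, and Cxcl1 from 0.91 to 3.71 and 0.91 to 2.71. The settings without macrophage markers were chosen after seeing the data and left under 30 classical monocytes in each GAL library. With no filter on low counts both genes were called in both types. With 2 libraries a group and few cells of some types (16 alveolar type 2 cells in GAL replicate 2), small differences were not detectable at this depth.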
